A study of Homo sapiens with 12 samples.

Results

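The comparison asked which effects of Nutlin-3a differ between the colorectal carcinoma cell lines RKO and HCT116. For each probe set, the change in HCT116 (Nutlin-3a minus untreated) was subtracted from the change in RKO, so a negative difference means a lower response in RKO. It rests on 8 of the 12 arrays of the study, 2 in each of 4 groups: HCT116 untreated, HCT116 with Nutlin-3a, RKO untreated and RKO with Nutlin-3a. Members were all 14530 probe sets paired with 1 gene symbol, of 37270 on the array, and they stand for 14118 genes. The arrays were of the Affymetrix type Human Gene 2.0 ST, and all levels below are log2 signals as deposited.

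HCT116 and RKO are established lines, and both are labelled as wild type for p53 (p53 WT) in every group used. Treated cells received 10 µM Nutlin-3a for 8 h. The other 4 arrays come from SW48, also labelled p53 WT and given the same treatment; they entered the fit only through the shared estimate of spread, and their response is given as a reading in the third line. The duplicates are not said to be separate cultures, so p-values measure only the spread between these samples, which may be technical. Each line stands for itself alone, and any culture or array batch that follows the line cannot be told apart from it.

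Nutlin-3a occupies the pocket of MDM2 that holds p53. MDM2 marks p53 for degradation, so blocking it lets p53 accumulate without DNA damage and switch on its target genes, which act in cell cycle arrest, apoptosis, repair and metabolism. Genes of DNA replication and mitosis are usually lowered in the same cells, largely through p21 and the RB and DREAM repressor complexes. MDM2, CDKN1A, BTG2 and the long noncoding RNA PINCR named in the study's title were not analysed here, as none had a probe set paired with its symbol.

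The arrays had medians from 4.97 to 5.05, and the median absolute difference between duplicates was 0.0903 to 0.101. Of the markers of intestinal epithelium, 19 of 23 measured were not dim in HCT116 and 16 of 23 in RKO, where dim means below the array median on all 4 arrays of the line. Their mean signal was 7.09 to 7.17 on the HCT116 arrays and 5.79 to 5.89 on the RKO arrays; EPCAM, CDX2, KRT8 and KRT18 were not dim in either line. The extraction text of the labels speaks of thyroids, and the growth text names HCT116 alone. Of 5 thyroid markers measured, TG, PAX8, NKX2-1 and FOXE1 were not dim in either line, at mean signals of 5.30 to 5.39 (HCT116) and 5.08 to 5.25 (RKO), close above the array medians, and TSHR was dim. Fibroblast markers averaged 4.01 to 4.16 in HCT116 and 4.15 to 4.41 in RKO, with THY1 alone of 3 not dim. Endothelial markers averaged 5.51 to 5.72 and 5.54 to 5.63, and immune markers 5.48 to 5.51 and 5.91 to 6.02; the part of such signals in the results was not tested.

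The responses of RKO and HCT116 differed at 23 probe sets of 23 genes, 0.158% of those tested (limma, Benjamini-Hochberg adjusted p under 0.05 over all 14530). The response was lower in RKO for 15 (0.103%) and higher for 8 (0.0551%). Of the 15, 13 rose in HCT116 and 3 fell in RKO, 1 gene doing both; of the 8, 4 rose in RKO and the other 4 fell in HCT116. These counts rest on few arrays: adjusted p-values ran from 0.0218 to 0.0488, a further 17 probe sets lay between 0.05 and 0.06, and 1692 had an unadjusted p under 0.05. A fit on the 8 HCT116 and RKO arrays alone, without the spread that SW48 adds, called 0 (limma, lowest adjusted p 0.0622, 1663 at an unadjusted p under 0.05). With the replicate number as a block, 1 was called (limma, lowest adjusted p 0.0371). The calls also depended on single arrays. Leaving out 1 array moved the 23 differences by at most 0.37. All 23 kept their direction under every setting run, apart from the filter on dim probe sets, which left 20 of them to test. Most settings leave the estimate unchanged, and the loss of 1 array cannot reverse it, as the array pairs described next do not overlap. Quantile normalization and median centring moved the differences by at most 0.0859 and 0.0552, so the kept direction is no independent support.

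For each of the 23, the 4 treated-minus-untreated pairs of arrays in one line did not overlap the 4 in the other, which was also so for 27.1% of all probe sets. The typical difference had a standard error of 0.126, and its 95% interval reached 0.281 to either side. This interval is not adjusted for the number of probe sets, so with 2 arrays per group a call needed a larger difference. The smallest difference called was 0.58, and 6 of the 13 probe sets with a difference of at least 1 were called. TAPBP, named after its value was seen, gave -2.07 and did not pass (SE 0.412, adjusted p 0.102). By size alone, 316 probe sets (2.17%) differed by at least 0.5 without overlap between the lines, 154 (1.06%) lower in RKO and 162 (1.11%) higher. With every array centred on its own median, 28 were called, and the median difference over all probe sets moved from -0.01 to -0.06. Of the 28, 78.6% were lower in RKO, against 65.2% as deposited. The share was 62.5% of 32 calls with quantile normalization and 53.1% of 49 calls with a filter on dim probe sets.

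**Figure D1:**
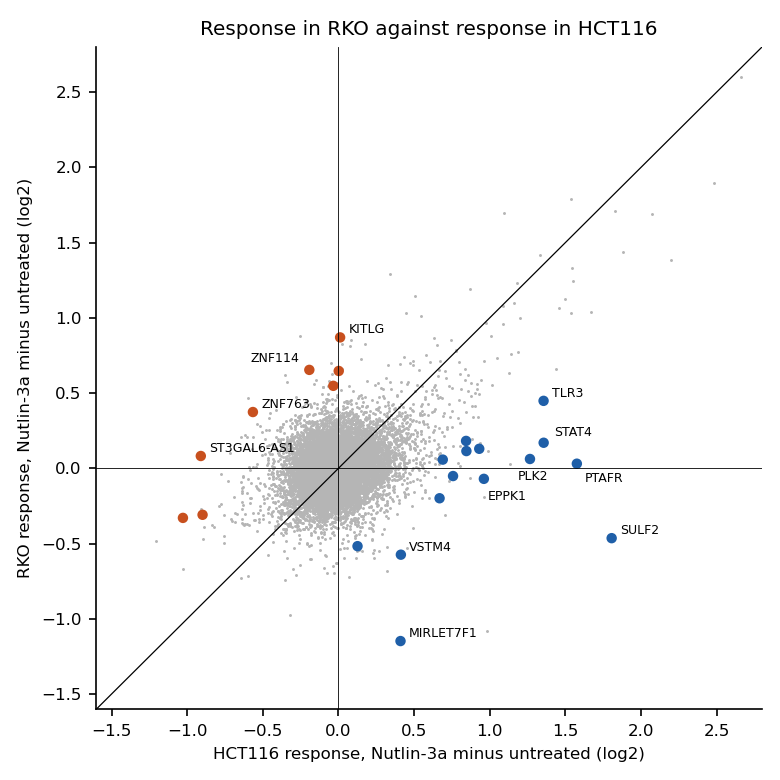
Response to Nutlin-3a (log2, treated minus untreated, means of 2 arrays) in RKO against HCT116 for 14530 probe sets in grey. Blue points are the 15 called with a lower response in RKO, orange the 8 called higher, and the diagonal marks equal responses; some are labelled. Most blue points lie near 0 in RKO and well above 0 in HCT116, SULF2 farthest at 1.81 and -0.46.

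Among the 692 probe sets called in HCT116 (4.76%) and the 278 called in RKO (1.91%), 13 of the 23 were called in HCT116 only, 6 in RKO only and 4 in both. Over all probe sets 2.89% rose and 1.87% fell in HCT116, and 1.18% rose and 0.73% fell in RKO. These within-line calls use the same arrays as the difference and are given to say where a gene moved. Untreated levels differed between the lines at 40.7% of all probe sets, and the untreated arrays enter the response differences too, so starting levels are given below as values only. The plot of response against response shows these kinds: genes that rose in HCT116 and stayed near 0 in RKO lie at the lower right, genes that rose in RKO and not in HCT116 above the centre, and genes that fell in HCT116 at the left.

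**Figure D2:**
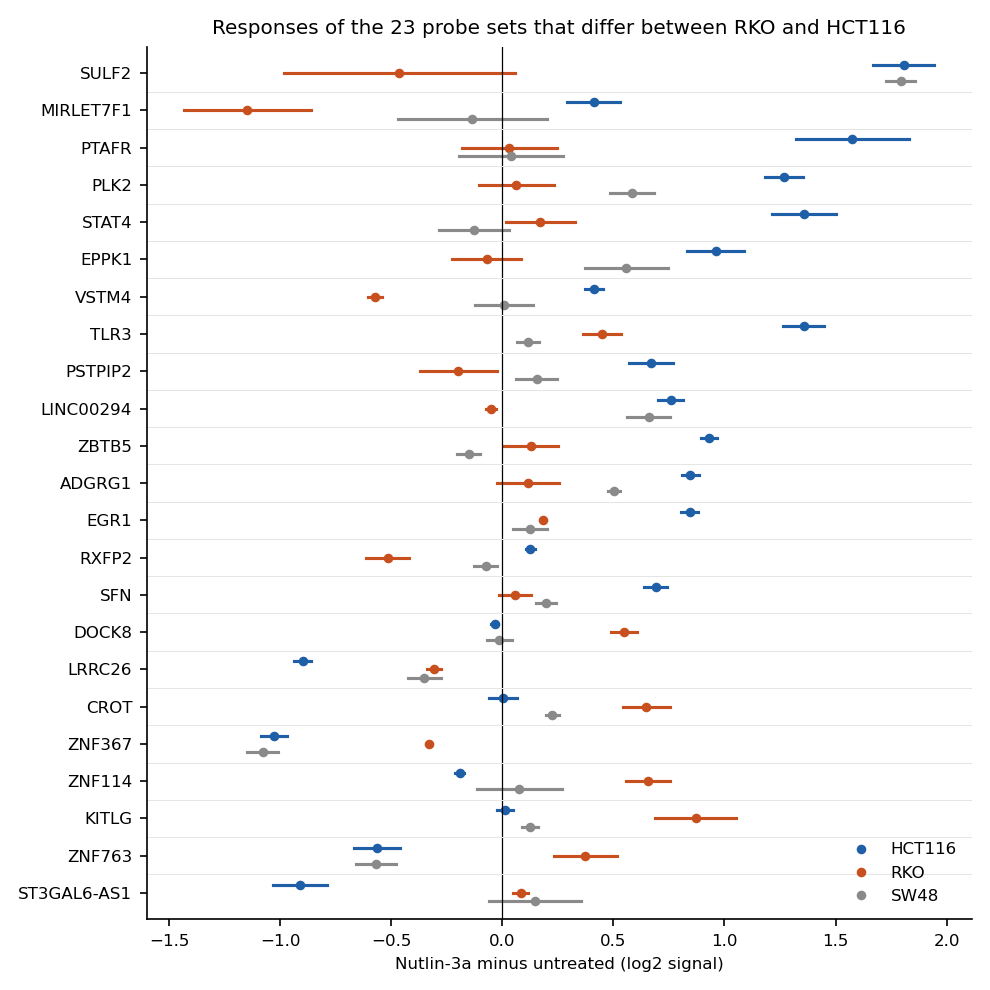
Response to Nutlin-3a (log2 signal, treated minus untreated) of the 23 genes whose response differs, in HCT116 (blue), RKO (orange) and SW48 (grey), ordered by the difference. Points are means of 2 arrays per group and bars span the 4 treated-minus-untreated pairs of arrays; no blue bar overlaps its orange one.

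Genes of the p53 target lists made up 6 of the 23. Of 71 measured targets, 5 had a lower response in RKO (SULF2, PTAFR, PLK2, TLR3 and SFN) and 1 a higher one (KITLG). Of all 14118 genes, 15 were called lower and 8 higher. The median difference over the 71 was -0.17, against -0.01 over all genes, and 54 (76.1%) lay below 0, against 51.4% of all probe sets. By size alone, 11 of the 71 were lower in RKO and 2 higher, against 148 and 159 of all 14118 genes. In HCT116 47 of the 71 rose and in RKO 33, against 417 and 170 of all 14118 genes. The lists were chosen with results of these data known, so these counts describe them and are no independent evidence of direction.

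SULF2, which encodes a secreted sulfatase that trims sulfate groups from heparan sulfate, differed most. Its signals in HCT116 were 7.50 and 7.70 untreated and 9.37 and 9.45 with Nutlin-3a. In RKO they were 5.49 and 4.76 untreated and 4.81 and 4.50 treated, so the RKO groups overlap while the HCT116 groups are far apart. SULF2 rose 3.50-fold in HCT116 (log2 1.81, SE 0.195, limma adjusted p 0.000656), and its RKO change of -0.46 did not pass (adjusted p 0.272). The difference was -2.27 (SE 0.276, 95% interval -2.89 to -1.65, adjusted p 0.0266). SW48 rose by 1.79, near the HCT116 value, from 8.02 and 8.13 to 9.88 and 9.86. Untreated RKO started 5.58-fold below untreated HCT116. The RKO signals other than 5.49 lay below 4.97, the lowest array median, and the part of low signal in the response difference was not tested. A second probe set paired with SULF2 showed no such difference (0.09, SE 0.137, adjusted p 0.853) and did not change in HCT116 beyond its error (0.00, SE 0.0968).

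PLK2 encodes a stress-inducible kinase of the polo family that acts in centriole duplication and the cell cycle. The HCT116 arrays read 7.91 and 7.87 untreated and 9.23 and 9.09 treated. The RKO arrays read 4.22, 4.03, 4.12 and 4.26 in the same order, below the array medians throughout. PLK2 thus rose 2.41-fold in HCT116, while its RKO signal stayed at a low level in both groups (0.06, adjusted p 0.802). The difference was -1.20 (SE 0.132, interval -1.50 to -0.91, adjusted p 0.0218). In SW48, where PLK2 started at 8.56 and 8.75, it rose by 0.58. Its paralogue PLK3 rose in both lines, by 1.44 in HCT116 and 0.66 in RKO, and the difference of -0.78 (SE 0.142) did not pass (adjusted p 0.0806).

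PTAFR, the G protein-coupled receptor for platelet-activating factor, read 5.90 and 6.19 in untreated HCT116 and 7.73 and 7.51 after treatment. In RKO the untreated arrays gave 5.56 and 5.55 and the treated 5.79 and 5.38. The treated RKO pair therefore lay to both sides of the untreated pair. The rise was 2.98-fold in HCT116 (adjusted p 0.000362) and the difference -1.55 (SE 0.219, adjusted p 0.0411). Untreated RKO started 1.40-fold lower, and the SW48 response of 0.04 was near that of RKO.

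TLR3, the endosomal receptor for double-stranded RNA, was called in both lines. It went from 6.89 and 6.80 to 8.15 and 8.25 in HCT116, and from 8.01 and 7.91 to 8.37 and 8.45 in RKO. The treated HCT116 arrays thus reached about the level at which RKO began. The rise was 2.56-fold in HCT116 and 1.36-fold in RKO (adjusted p 0.0116), and the difference -0.91 (SE 0.0970, interval -1.12 to -0.69, adjusted p 0.0218). In SW48, which started highest of the 3 lines, the change of 0.11 did not pass. TLR3 was the sole called member among 25 measured interferon-stimulated and antigen presentation genes, whose median difference was 0.05.

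SFN, or stratifin, keeps mitotic cyclin-kinase complexes in the cytoplasm and is a p53 target of epithelial cells. Its signal was high in both lines, at 11.11 and 11.04 in untreated HCT116 and 10.75 and 10.63 in untreated RKO. With Nutlin-3a it reached 11.74 and 11.78 in HCT116 but 10.76 and 10.74 in RKO, where treated and untreated arrays overlapped. It rose 1.61-fold in HCT116, and the difference was -0.63 (SE 0.0900, adjusted p 0.0411). Untreated RKO started 1.30-fold below untreated HCT116.

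KITLG encodes stem cell factor, the ligand of the receptor tyrosine kinase KIT, and was the one p53 target called with a higher response in RKO. In HCT116 its signal was high, at 11.76 and 11.83 untreated and 11.80 and 11.81 treated, where the highest value on any array was 13.45. In RKO it read 6.98 and 6.78 untreated and 7.83 and 7.66 treated, with no overlap. The rise in RKO was 1.83-fold (adjusted p 0.000533), and the difference was 0.86 (SE 0.115, interval 0.60 to 1.12, adjusted p 0.0394). Untreated RKO lay 30.2-fold below untreated HCT116, so the RKO level stayed far under that of HCT116 in both groups. SW48 started at 10.64 and 10.64 and its change of 0.12 did not pass.

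**Figure D3:**
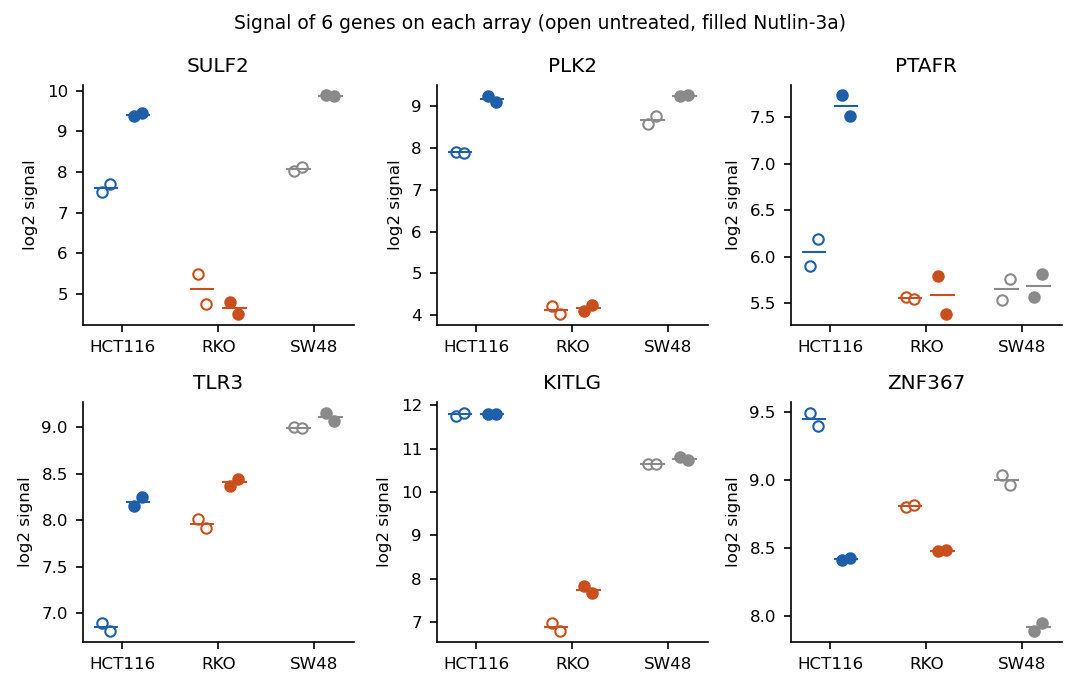
log2 signal on each array for SULF2, PLK2, PTAFR, TLR3, KITLG and ZNF367 in HCT116, RKO and SW48; open circles are untreated, filled circles Nutlin-3a, and short lines the means of 2 arrays. Each panel has its own vertical scale, which does not start at 0; SULF2 and PLK2 stay near 4 to 5.5 in RKO, whereas KITLG stays near 11.8 in HCT116.

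The panels of levels by array show that treated and untreated HCT116 arrays separate for all the plotted genes but KITLG. Promoter sequences of PLK2 and ZNF367 are shown because the letters of a p53 half-site or of a cell cycle element stand in them, and that of KITLG because it is the p53 target called in the opposite direction; its window holds neither. Each is the 250 bases upstream of the annotated start, 5′ to 3′ on the gene's strand, from RefSeq in GRCh38.p14, with the matched letters in capitals. The windows are chr5:58460087-58460336 (minus strand) for PLK2, chr12:88580472-88580721 (minus strand) for KITLG and chr9:96418371-96418620 (minus strand) for ZNF367.
PLK2: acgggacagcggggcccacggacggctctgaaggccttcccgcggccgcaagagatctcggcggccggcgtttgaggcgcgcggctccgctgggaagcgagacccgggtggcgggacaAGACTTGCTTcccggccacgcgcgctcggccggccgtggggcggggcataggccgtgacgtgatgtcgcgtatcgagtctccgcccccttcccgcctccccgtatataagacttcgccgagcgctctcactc
KITLG: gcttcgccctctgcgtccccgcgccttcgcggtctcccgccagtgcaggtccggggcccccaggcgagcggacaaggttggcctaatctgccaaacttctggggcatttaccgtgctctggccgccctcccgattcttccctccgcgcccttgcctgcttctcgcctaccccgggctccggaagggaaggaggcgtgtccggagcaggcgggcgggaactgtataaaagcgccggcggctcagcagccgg
ZNF367: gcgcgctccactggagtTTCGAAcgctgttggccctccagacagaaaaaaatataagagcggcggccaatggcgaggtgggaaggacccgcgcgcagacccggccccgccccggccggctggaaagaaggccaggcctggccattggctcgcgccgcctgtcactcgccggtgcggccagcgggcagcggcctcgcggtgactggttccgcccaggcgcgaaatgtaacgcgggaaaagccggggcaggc

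The PLK2 window holds AGACTTGCTT, a match to the p53 half-site, 132 bases before the start. The ZNF367 window holds TTCGAA, one of the spellings of the cell cycle genes homology region (CHR), 233 bases before the start. Over 18 of the 23 genes with a promoter entry, counted in the whole 300-base windows on both strands, the half-site letters stood in 3 of 19 windows of genes lower in RKO (PLK2, RXFP2 and ADGRG1) and in 1 of 7 of genes higher in RKO (DOCK8). They stood in 6.63% of all 35116 promoter windows and in 6.30% of the 14652 windows of genes tested. The 19 windows belong to 12 genes and the 7 to 6, so some genes count more than once. TTTGAA or TTCGAA, which can overlap, stood in 2 of the 19 (TLR3 and EGR1) and 2 of the 7 (DOCK8 and ZNF367). The share was 16.4% over all windows and 13.5% over those of genes tested. A match describes the letters and is not evidence of binding.

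Outside the p53 lists, 7 further genes rose in HCT116, had a lower response in RKO and did not pass in RKO. STAT4, a transcription factor of interleukin signalling in lymphoid cells, read 4.80 and 4.84 untreated and 6.30 and 6.05 treated in HCT116. In RKO it stayed dim, from 3.69 to 4.01 over the 4 arrays. The HCT116 rise was 2.56-fold and the difference -1.19 (SE 0.157, adjusted p 0.0394). EPPK1, which encodes epiplakin, a cytoskeletal linker of keratin filaments, rose 1.95-fold in HCT116, from 6.39 and 6.52 to 7.35 and 7.47. Its RKO arrays lay between 4.91 and 5.14 with treated and untreated mixed, and the difference was -1.03 (SE 0.147, adjusted p 0.0411).

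EGR1 is an immediate early transcription factor that growth factor signalling through MAP kinases induces. HCT116 arrays rose from 8.79 and 8.87 to 9.68 and 9.67. RKO arrays, higher from the start, read 10.05 and 10.07 untreated and 10.24 and 10.24 treated. These RKO pairs did not overlap, but the RKO change of 0.18 did not pass (adjusted p 0.191), and the difference was -0.66 (SE 0.0903, adjusted p 0.0394). A second probe set paired with EGR1 differed by 0.15 (SE 0.150, adjusted p 0.749). EGR1 was the called member among 28 measured immediate early and MAPK-responsive genes, whose median was -0.10. Of these, 22 (78.6%) lay below 0, against 51.4% of all probe sets. MYC, JUN and DUSP5 gave -0.39, -0.40 and -0.45 without passing, and the highest member of the list gave 0.15.

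ADGRG1, an adhesion G protein-coupled receptor, rose 1.80-fold in HCT116 (8.88 and 8.89 to 9.70 and 9.77). In RKO it lay 11.4-fold lower, at 5.35 and 5.40 untreated and 5.61 and 5.37 treated, and the difference was -0.73 (SE 0.109, adjusted p 0.0457). PSTPIP2, a membrane-bending adaptor of the actin cytoskeleton, rose 1.59-fold in HCT116 (8.86 and 8.95 to 9.52 and 9.63) and was dim in RKO (3.61 to 3.98). Its difference was -0.87 (SE 0.125, adjusted p 0.0417), and as the RKO signal was dim, no fold is given for the gap between the untreated lines. For PLK2, STAT4 and PSTPIP2 the RKO signal was dim in both groups, and the part of low signal in their differences was not tested.

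ZBTB5, a zinc finger repressor of the BTB family, started 1.22-fold lower in RKO, with untreated signals of 7.97 and 7.95 in HCT116 and 7.62 and 7.73 in RKO. Nutlin-3a brought it to 8.87 and 8.92 in HCT116 and to 7.74 and 7.87 in RKO. The HCT116 groups were far apart and the RKO pairs nearly touched. The rise was 1.91-fold in HCT116, and the difference -0.80 (SE 0.0972, adjusted p 0.0266). SW48 changed by -0.15, which did not pass.

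The long noncoding RNA LINC00294 read 8.09 and 8.19 untreated and 8.90 and 8.90 treated in HCT116. In RKO it gave 9.08 and 9.04 untreated and 9.01 and 9.01 treated, so untreated RKO already lay above treated HCT116. The difference was -0.81 (SE 0.0933, interval -1.02 to -0.60, adjusted p 0.0259), and SW48, which had the highest signal, rose by 0.66. Its nearest measured neighbour on one side in the RefSeq annotation, the protein-coding TCP11L1, responded alike. TCP11L1 rose by 0.57 in HCT116, gave -0.02 in RKO, and differed by -0.59 (SE 0.0935, limma adjusted p 0.0502). The nearest on the other side, the long noncoding RNA CSTF3-DT, did not: it gave -0.28 in both lines and differed by 0.0025 (SE 0.156).

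Of the genes with a lower response in RKO, 3 fell in RKO. VSTM4, a transmembrane protein of the immunoglobulin superfamily, was the one probe set of all 14530 that was called in opposite directions in these lines. It rose from 5.58 and 5.62 to 6.03 and 5.99 in HCT116 (adjusted p 0.00979) and fell from 5.86 and 5.84 to 5.30 and 5.25 in RKO (adjusted p 0.00332). All 4 groups were apart, and the difference was -0.99 (SE 0.0996, adjusted p 0.0218). SW48 did not change beyond its error (0.01), and a second probe set paired with VSTM4, dim in both lines, differed by 0.09 (SE 0.127, adjusted p 0.831). RXFP2, a receptor of the relaxin peptide family, was dim in both lines (2.96 to 3.70); it fell by 0.52 in RKO, and the difference was -0.64 (SE 0.0957, adjusted p 0.0457).

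MIRLET7F1 encodes let-7f, a microRNA of the let-7 family, which restrains growth-promoting transcripts. The RKO arrays read 4.73 and 4.42 untreated and 3.56 and 3.30 treated, and the HCT116 arrays 3.04 and 3.23 untreated and 3.58 and 3.52 treated. The signal was dim in both lines, and treated RKO came down to the level of treated HCT116. It fell by 1.15 in RKO (adjusted p 0.00617), its HCT116 change of 0.41 did not pass, and the difference was -1.56 (SE 0.222, adjusted p 0.0411). A probe set of this kind lies over the precursor's locus and can read the host transcript MIRLET7A1HG, so it does not measure the mature microRNA as such.

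The mature sequences of let-7f and of the 2 other microRNAs of its genomic cluster are shown because they share the seed while the probe sets did not respond alike. They are from RefSeq in GRCh38.p14, 5′ to 3′, with the seed (bases 2 to 8) in capitals.
let-7f-5p: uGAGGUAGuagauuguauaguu
let-7a-5p: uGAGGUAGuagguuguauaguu
let-7d-5p: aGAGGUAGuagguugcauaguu
All 8 let-7 genes measured carry this seed in their 5p strand, and MIRLET7F1 alone was called. The response difference was 0.03 (SE 0.120) for MIRLET7A1 and -0.15 (SE 0.210) for MIRLET7D, the neighbours in the cluster.

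The response was higher in RKO for 8 genes, and apart from KITLG 3 of them rose in RKO with no passing change in HCT116. CROT, the peroxisomal carnitine octanoyltransferase of fatty acid breakdown, read 6.52 and 6.44 untreated and 7.19 and 7.06 treated in RKO. In HCT116 it was dim at 3.50 to 3.61 in both groups. The RKO rise was 1.57-fold (adjusted p 0.00129), and the difference was 0.65 (SE 0.0964, adjusted p 0.0457). DOCK8, an activator of the GTPase CDC42 known from immune cells, rose 1.46-fold in RKO, from 5.61 and 5.60 to 6.20 and 6.10. It too was dim in HCT116, at 4.32 to 4.37, and the difference was 0.58 (SE 0.0853, adjusted p 0.0457).

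The zinc finger gene ZNF114 was well above the array medians in both lines. It rose 1.57-fold in RKO, from 9.61 and 9.76 to 10.37 and 10.32, and its HCT116 arrays read 8.74 and 8.75 untreated and 8.57 and 8.54 treated. The HCT116 change of -0.19 did not pass, and the difference was 0.85 (SE 0.129, adjusted p 0.0488). SW48 gave 0.08.

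ZNF367 and LRRC26 fell in both lines and fell less in RKO. ZNF367, a zinc finger gene, dropped from 9.49 and 9.39 to 8.41 and 8.42 in HCT116, and from 8.80 and 8.81 to 8.47 and 8.48 in RKO. The treated levels of both lines thus lay close together, from unequal starts. The fall was 2.04-fold in HCT116 and 1.26-fold in RKO (adjusted p 0.0297), and the difference 0.70 (SE 0.0864, interval 0.51 to 0.89, adjusted p 0.0266). SW48 fell by 1.08. LRRC26, an auxiliary subunit of a calcium- and voltage-gated potassium channel, fell 1.86-fold in HCT116 and 1.24-fold in RKO, and differed by 0.59 (SE 0.0902, adjusted p 0.0488).

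ZNF763 and the antisense RNA ST3GAL6-AS1 fell in HCT116 without a passing change in RKO. ZNF763 went from 4.03 and 4.13 to 3.57 and 3.46 in HCT116, where it was dim. In RKO it went from 4.62 and 4.59 to 5.11 and 4.85 (0.37, limma adjusted p 0.0733). The RKO signals other than 5.11 lay below 4.97, the lowest array median, and the part of low signal was not tested. The difference was 0.94 (SE 0.128, adjusted p 0.0394), and SW48 fell by 0.57, as did HCT116. ST3GAL6-AS1 went from 5.54 and 5.58 to 4.75 and 4.55 in HCT116 and was dim in RKO (3.94 to 4.06); the difference was 0.99 (SE 0.152, adjusted p 0.0488). It overlaps ST3GAL6, which has no value here, and the labels do not say whether the signal is strand-specific, so the sense gene may share it.

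The SW48 response lay nearer that of HCT116 for 13 of the 23 genes and nearer that of RKO for 10, beside 47.2% nearer HCT116 over all probe sets. It was near HCT116 for SULF2, LINC00294, ZNF367 and ZNF763, and near RKO for PTAFR, STAT4, TLR3, ZBTB5, EGR1 and LRRC26. For KITLG, CROT and DOCK8 it lay nearer HCT116, although CROT had a higher level in SW48 (8.35 and 8.38 untreated) than in either other line. The third line thus did not place the differences with one of the pair.

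Much of the p53 response did not differ detectably. BBC3, which encodes the apoptosis inducer PUMA, rose by 1.33 in HCT116 and 1.42 in RKO, with a difference of 0.08 (95% interval -0.23 to 0.39). TIGAR, a regulator of glycolysis, differed by 0.05 (-0.19 to 0.30), and TRIAP1, an apoptosis inhibitor, by -0.01 (-0.27 to 0.25). For the ceramidase gene ACER2 the difference was -0.12 (-0.35 to 0.11), for the ribonucleotide reductase subunit RRM2B -0.13 (-0.39 to 0.13), and for the stress cytokine GDF15 -0.21 (-0.51 to 0.09). The long noncoding RNA PURPL differed by 0.26 (-0.18 to 0.69). These intervals leave room for modest differences in either direction.

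Other strong targets had lower responses in RKO that missed the threshold. TP53I3, a quinone oxidoreductase of the apoptosis list, rose by 2.20 in HCT116 and 1.38 in RKO (difference -0.82, SE 0.133, adjusted p 0.0528). TP53INP1, which feeds back on p53 and acts in autophagy, rose by 2.48 and 1.90 (-0.59, SE 0.109, adjusted p 0.0855). SUSD6 gave -0.63 and RPS27L, a ribosomal protein paralogue, -0.49 (adjusted p 0.0948 and 0.102). In the other direction, PIDD1, the scaffold of the PIDDosome, rose by 0.51 in HCT116 and 1.14 in RKO, a difference of 0.64 (SE 0.137, adjusted p 0.123), and the cytokine LIF by 0.55 and 1.01.

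By function, metabolism and autophagy targets had a median difference of -0.27 with 19 of 22 below 0 and none called. Secreted and membrane targets had a median of -0.21 with 3 of 18 called lower and 1 higher; 12 of the 18 rose in HCT116 and 5 in RKO. For cell cycle arrest targets the median was -0.11 with 2 of 9 called lower (PLK2 and SFN). The 12 apoptosis targets had a median of -0.07 with none called, and 7 rose in each line. The 4 repair targets and the 8 feedback regulators had medians of -0.16 and -0.07 with none called, and the 8 p53-linked noncoding RNAs one of 0.01. For scale, of all 14118 genes 15 were called lower and 8 higher, and 417 rose in HCT116 and 170 in RKO.

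**Figure D4:**
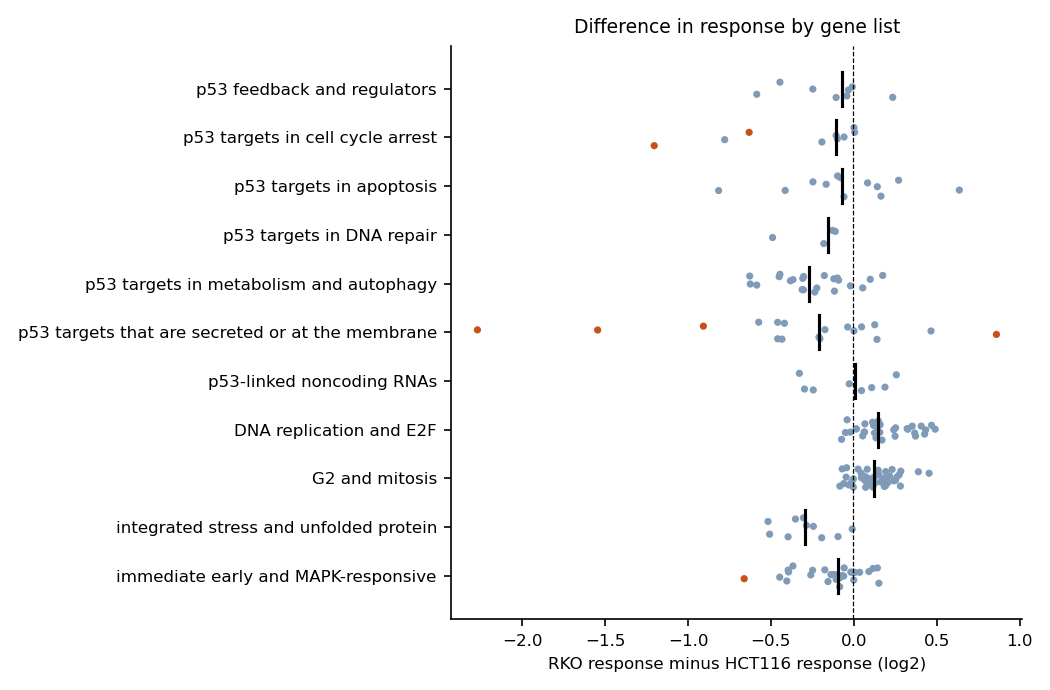
RKO response minus HCT116 response (log2) for each measured member of 11 gene lists, 1 probe set per gene; orange points are called, blue points are not, black bars are list medians and the dashed line the median of all probe sets. Height within a row has no meaning; the p53 target lists lie mostly left of the line with SULF2 at -2.27, and the replication and mitosis lists right of it.

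In the lists of DNA replication and of mitosis genes no member was called, and the plot by gene list shows medians above that of all genes. The 33 measured DNA replication and E2F genes had a median difference of 0.15 and 4 (12.1%) lay below 0, against 51.4% of all probe sets. Of these genes 22 fell in HCT116 and 7 in RKO, against 270 and 106 of all 14118 genes, and 1, the sliding clamp PCNA, rose in RKO (0.41). DTL, which directs the replication-coupled ubiquitin ligase, read 11.43 and 11.37 untreated and 10.78 and 10.74 treated in HCT116, and 11.51 and 11.46 against 11.34 and 11.34 in RKO. Its difference of 0.49 (SE 0.0821) missed the threshold (adjusted p 0.0582). The G1/S cyclins CCNE1 and CCNE2 fell by 0.90 and 0.82 in HCT116 and by 0.47 and 0.39 in RKO, differences of 0.43 each. The licensing factor CDT1 gave -0.53 and -0.06. MCM2 to MCM7, the replicative helicase, differed little, between -0.07 and 0.13.

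Of 45 G2 and mitosis genes, most did not pass in either line: 9 fell in HCT116 and 2 in RKO. Their median difference was 0.12 and 10 (22.2%) lay below 0; CDC25A, the phosphatase that activates cyclin-dependent kinases, lay highest at 0.45 (SE 0.105, adjusted p 0.150). In the integrated stress list all 10 measured members lay below 0, with a median of -0.30 and none called. TRIB3, a pseudokinase of that response, rose by 0.46 in HCT116 and gave -0.06 in RKO (difference -0.52, SE 0.113, adjusted p 0.128). ASNS, asparagine synthetase, differed by -0.51 (adjusted p 0.0502).

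Among the remaining lists, intestinal identity genes had a median of 0.06 and CLDN4, a tight junction claudin, stood apart at -0.89 (SE 0.143, adjusted p 0.0502), with a rise of 0.49 in HCT116 and -0.40 in RKO. BMP4, a growth factor in the Wnt and growth factor list, fell by 0.70 in RKO and gave -0.03 in HCT116 (difference -0.67, adjusted p 0.0894). SNAI2 of the mesenchymal list and PTGS2 of the inflammatory list gave -0.53 and -0.49 (adjusted p 0.387 and 0.306). Cholesterol synthesis and mismatch repair lists had medians of 0.09 and 0.14, with INSIG1 at 0.33 and EXO1 at 0.37, and ribosome biogenesis one of -0.08; none had a called member. Of genes named with the study, MATR3, the RNA-binding protein Matrin 3, differed by -0.13 (SE 0.0760) and GPX1, a peroxide-reducing enzyme, by -0.30 (SE 0.103). The largest differences of the endothelial, thyroid, immune and fibroblast markers were 0.19 (ESAM), 0.28 (FOXE1), 0.31 (CD14) and 0.49 (THY1), that of the housekeeping genes -0.20 (PPIA), and none passed.

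The size of the response was also read over genes chosen on the SW48 arrays, which do not enter the difference except through the shared spread. The 193 probe sets that rose in SW48 (of 429 called there, 2.95%) had a median response of 0.44 in HCT116 and 0.30 in RKO. Their median difference was -0.11, and 124 (64.2%) were lower in RKO. The 236 that fell in SW48 had medians of -0.23 in HCT116 and -0.13 in RKO and a median difference of 0.10, with 68 (28.8%) below 0, so for most the fall was smaller in RKO.

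**Figure D5:**
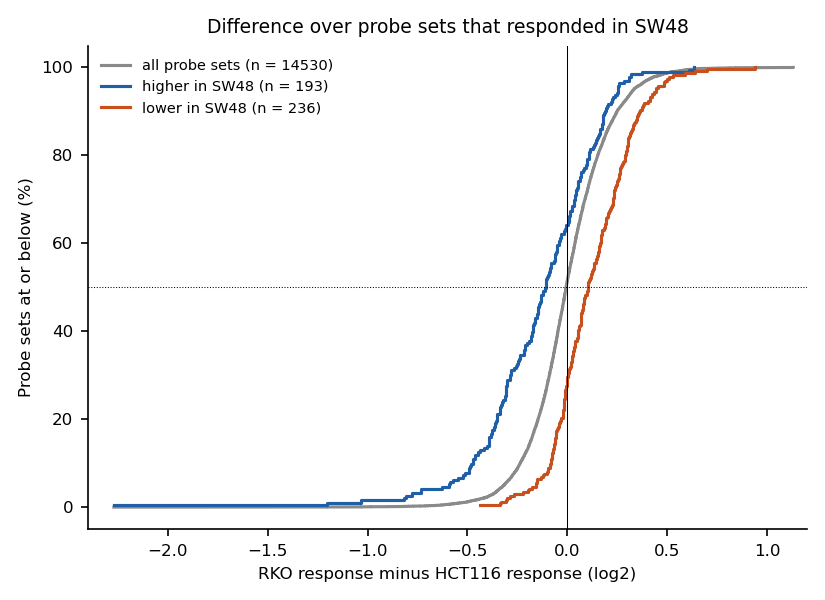
Cumulative share (%) of probe sets at or below a given RKO minus HCT116 difference (log2), for all 14530 probe sets (grey), the 193 that rose in SW48 (blue) and the 236 that fell in SW48 (orange). The curves cross the dotted 50% line at -0.11 for risers, 0.10 for fallers and -0.01 for all.

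The cumulative curves of SW48 responders lie to both sides of the curve of all probe sets over most of their range. Genes higher in SW48 were thus shifted towards a smaller rise in RKO, and genes lower in SW48 towards a smaller fall. Probe sets share arrays and are not replicates. The shifts are close in size to the median duplicate difference. That difference describes single probe sets, so it does not measure the spread of a median over many. For responders taken by size in SW48, the median differences were -0.18 (120 higher) and 0.25 (83 lower). The spread over array pairs was taken for the called SW48 responders only, not for those by size. It was 0.0148 for the median difference of the called risers and 0.0261 for that of the called fallers. With arrays centred on their medians, the shifts of the called SW48 responders were -0.16 and 0.05, beside a median of -0.06 over all probe sets. With quantile normalization they were -0.07 and 0.14, beside 0.01 over all.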

How the data were processed

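The values were the authors' deposited log2 signals, 1 per probe set and array. Per the submitters' processing notes, the software was GCOS; the background correction, summarization and normalization steps are not stated in those notes, and base 2 was taken from the range, 2.22 to 13.45. Symbols came from GEO's platform annotation, which gave 1 symbol to 14530 probe sets and none to 22740. Probe set positions were not used.

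All 12 arrays entered 1 limma 3.58.1 model of 6 group means in R 4.3.3 (6 residual and 3.70 prior degrees of freedom), with p-values adjusted by Benjamini-Hochberg over 14530 probe sets, and the model was tested on simulated data. Gene lists used 1 probe set per gene, the one with the highest mean. The members and lists were chosen with earlier results of these data known.

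Genes were named by rule: called differences without overlap (up to 15 per direction), genes called in opposite directions, up to 3 called members or the largest difference of each list, and 9 genes chosen with the study. Further list members and neighbours were named after their values were seen. Alternatives changed the probe sets tested, filter, normalization, prior, threshold, arrays and replicate block. The number of arrays limits the precision.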

Additional observations from a re-analysis of the deposited data

Results flagged for a closer look

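All 23 called probe sets were singled out because their response differs between the lines by a test of the difference itself (limma, adjusted p under 0.05). On the log2 scale the difference, RKO minus HCT116, was -2.27 for SULF2, -1.56 for MIRLET7F1, -1.55 for PTAFR, -1.20 for PLK2, -1.19 for STAT4 and -1.03 for EPPK1. It was -0.99 for VSTM4, -0.91 for TLR3, -0.87 for PSTPIP2, -0.81 for LINC00294, -0.80 for ZBTB5, -0.73 for ADGRG1, -0.66 for EGR1, -0.64 for RXFP2 and -0.63 for SFN. It was 0.58 for DOCK8, 0.59 for LRRC26, 0.65 for CROT, 0.70 for ZNF367, 0.85 for ZNF114, 0.86 for KITLG, 0.94 for ZNF763 and 0.99 for ST3GAL6-AS1. The signal was dim in 1 of the lines only for 7 of them (30.4%; 4 in RKO and 3 in HCT116), against 737 (5.07%) of all 14530 probe sets, and dim in both for 2 (8.70%), against 3610 (24.8%). The part of low signal in the differences was not tested.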

How the results depend on the processing

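The 23 differences kept their direction under every setting run, 3 of them untested under the dim filter. Most settings leave the estimate unchanged and could not reverse it. The number of calls did not keep its size. It was 29 over all 37270 probe sets, with or without a symbol, and 12 of the 23 were among them; median centring kept 20 of the 23 among its 28 calls. It was 35 with 1 probe set per gene (23 lower in RKO), 49 with a filter on dim probe sets (23 higher, 26 lower) and 110 with an intensity trend and robust prior (41 higher, 69 lower). It was 0 at an adjusted p under 0.01, and 0 with the 8 HCT116 and RKO arrays alone (limma, lowest adjusted p 0.0622, 1663 at an unadjusted p under 0.05). Leaving out 1 array gave 0 to 10 calls, 0 to 2 higher and 0 to 9 lower. Such fits leave a group with 1 array, which is assumed to vary like the others. Of the 12 further calls with 1 probe set per gene, each had an adjusted p from 0.0502 to 0.0528 over all probe sets, and fewer probe sets are tested in that setting. Called p53 targets numbered 14 with the trend, 0 at the stricter threshold and with 8 arrays, and 0 to 4 without 1 array, against 6. Calls within HCT116 numbered 1216 with the trend, 269 at the stricter threshold and 257 to 676 without 1 array, against 692. Calls within RKO numbered 432 with the dim filter, 136 with 8 arrays, 750 with the trend, 85 at the stricter threshold and 98 to 214 without 1 array, against 278. With the replicate number as a block, the replicate block left 1 call (0 higher, 1 lower), 1 called p53 target, 346 calls in HCT116 and 83 in RKO. Deviations of same-numbered arrays correlated at 0.050 in HCT116, -0.061 in RKO and -0.026 in SW48. These values show no strong shared deviation but cannot tell whether the numbers pair the arrays, and the labels do not say. Over all probe sets the median difference was 0.0061 with quantile normalization and -0.0612 with median centring. The median difference over SW48 risers and fallers was -0.0702 and 0.14 with quantile normalization, -0.16 and 0.0485 with median centring, and -0.18 and 0.25 with responders taken by size. Without 1 array it was -0.133 to -0.0948 and 0.08 to 0.13. The causes were not tested unless stated.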
